A study of Mus musculus with 9 samples.

Results

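After 20 minutes of 100 nM corticosterone (CORT), the glucocorticoid receptor (GR) was listed at 10567 binding sites on chromosomes 1 to 19 and X of N2A cells, a mouse neuroblastoma line. Of these, 3879 sites (36.7%, 95% Wilson interval 35.8 to 37.6) overlapped no peak of the mineralocorticoid receptor (MR) after any treatment and no GR peak after CORT was washed out. They are called GR-only sites here. They were chosen by overlap of the peak lists, so the absence of MR and of washout GR at them is how they were selected and is not a result. The GR CORT sites that overlapped an MR CORT peak, 6444 in number, are called shared sites. The remaining 244 GR CORT peaks overlapped only an MR washout, MR vehicle or GR washout peak and entered no comparison.

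The lists come from ChIP-nexus, a chromatin immunoprecipitation in which an exonuclease trims the DNA up to the point of crosslinking. N2A cells were transiently transfected with vectors for both EGFP-GR and mCherry-MR, so every sample carried both tagged receptors, and each receptor was precipitated through its tag. The receptors are rat according to the study's methods and mouse according to the sample labels. Cells received vehicle for 20 minutes, 100 nM CORT for 20 minutes, or the same CORT treatment and then 40 minutes in medium without it (washout), and an input was taken for each treatment. The 3 replicates of a condition were combined before peaks were called, which leaves 1 peak list per condition and no error between replicates, and each test takes peaks as its units and compares sites within 1 library. Intervals cover counting error only. The lists do not give the depth behind a peak, and a site missing from the MR lists was not detectable at their depth and threshold.

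GR and MR are steroid receptors that bind corticosterone, move to the nucleus and attach to DNA through nearly identical zinc finger domains. Both bind as dimers to the glucocorticoid response element (GRE), an imperfect palindrome of the hexamers AGAACA and TGTTCT separated by 3 bases. GR can also be brought to chromatin by other factors such as AP-1, the Fos and Jun dimer. MR has the higher affinity for CORT.

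The GR-only sites with the closest match to the GRE are shown first, because the GRE is the element that both receptors bind. The sequences are the forward strand of the GRCm38 (mm10) reference, 5′ to 3′, with the GRE in capitals and 7 bases to each side. They were read from the reference, and the sequence of the cells themselves was not read. The first 3 have no mismatch to the 12 fixed positions and the other 9 have 1 mismatch. All 3 sites without a mismatch are shown. The other 9 were taken from 50 sites with 1 mismatch, the highest −log10 p first.
Ext1 intron, chr15:53202890-53202904: acaatctAGAACAATCTGTTCTccattag
Brat1 exon, chr5:140710618-140710632: gggggaaAGAACACAGTGTTCTaggtgaa
intergenic, nearest start Id4, chr13:48026775-48026789: gaccagcAGAACAGGATGTTCTaagaatg
Gm29502 intron, nearest start Slc30a5, chr13:100884195-100884209: aagagcaAGTACACTCTGTTCTtcagggc
Zcchc17 and Snrnp40, chr4:130359135-130359149: gactgatAGAACCTGCTGTTCTgtgcaga
Cd81 intron, chr7:143055813-143055827: ccccgacAGAACAGGCTGTTCCtccagcc
Slc25a25 intron, chr2:32419488-32419502: tgccagcAGAACAGAGTGTTATgcaaggc
intergenic, nearest start Pard6b, chr2:168113888-168113902: caactggAGAACAAAGTGTTCAtgagcct
intergenic, nearest start Ip6k2, chr9:108761805-108761819: gttctgcAGAACACTGTGTGCTcttagcc
Pnpla8 intron, chr12:44270352-44270366: tgatacaAGAACAGTCTGTACTtgaagtt
intergenic, nearest start Plxnc1, chr10:95101309-95101323: atcttgtAGAACAGACTCTTCTgcctgca
Rab10 intron, chr12:3284615-3284629: ggttaagAGTACATACTGTTCTcccagag

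The sites of the 3 perfect elements had −log10 p from 6.41 to 8.66, beside a median of 7.38 and a highest value of 18.9 over all GR-only sites. The Ext1 site, in the gene of a heparan sulfate glycosyltransferase, had a −log10 p of 8.66 against input, and its GRE was centred 29 bp from the summit. The Brat1 site, in the gene of a DNA damage response protein, had a −log10 p of 8.19 with the GRE centred 9 bp from the summit. The site beyond Id4, which encodes an inhibitor of basic helix-loop-helix factors, had a −log10 p of 6.41. The nearest MR peak of any treatment lay 20834 bp, 38904 bp and 141267 bp from these 3 sites. The strongest of the 12 was the Slc30a5 region site, with a −log10 p of 16.8 and its GRE centred 12 bp from the summit. Cd81, a tetraspanin gene, and Zcchc17 with Snrnp40, a component of the U5 spliceosomal particle, each had a site with a −log10 p of 14.2 and its GRE centred 15 bp from the summit.

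GR-only sites were weaker and narrower peaks than shared sites. Their −log10 p had a median of 7.38 (range 4.35 to 18.9), and that of shared sites had a median of 9.99 (range 4.35 to 77.0). Their median width was 96 bp, beside 145 bp for shared sites. These values are tied to the rule, because a wide peak meets more MR peaks by position alone, and are given as a description. The GR CORT peaks were divided at the deciles of −log10 p into 10 bands, which hold between 10 and 2073 peaks because many peaks have the same value. GR-only sites made up 63.7% of the weakest band (393 of 617), 43.2% of the band from 8.66 to 9.98 (868 of 2008) and 1.199% of the strongest band (13 of 1084). Within every band with at least 100 peaks the GR-only sites were also the narrower ones, with medians of 88 and 110 bp in the weakest band and 127 and 233 bp in the strongest. The odds ratios and the GC content difference below are computed within these bands, and the plain percentages are not matched for strength.

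**Figure D1:**
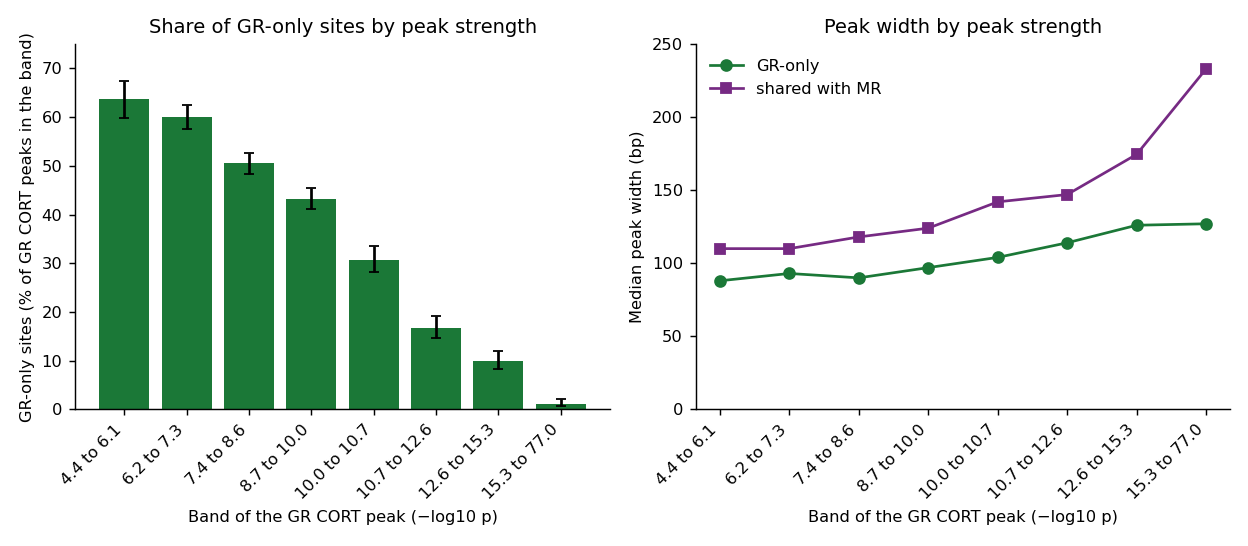
The left panel shows the percentage of GR CORT peaks that were GR-only sites in each band of −log10 p, with 95% Wilson intervals as bars. The right panel shows the median width in bp of GR-only (circles) and shared (squares) sites. Bands are the 8 with at least 100 peaks. The share of GR-only sites runs from 63.7% in the weakest band to 1.199% in the strongest, and GR-only sites are narrower in each band.

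Many GR-only sites lay near an MR peak. The median gap to the nearest MR CORT peak was 6591 bp, and 454 GR-only sites (11.7%) had one within 100 bp and 1205 (31.1%) within 1 kb. An MR peak of any treatment lay within 10 kb of 2217 sites (57.2%) and within 100 kb of 3513 (90.6%). At the edge of the rule, sites in or near Traf5, Slit3, Gm12299, Esrrb and Fbxl7 ended where an MR CORT peak began or began where one ended, with a gap of 0 bp, and were GR-only. Sites in Tbc1d16, Kcnmb2, 1700052H01Rik and Dclk2 overlapped an MR CORT peak by 1 bp and were shared. The −log10 p of these 5 GR-only sites ran from 6.13 to 9.99 and that of the 4 shared sites from 6.15 to 7.38. Requiring summits over 50 bp apart in place of no overlap would choose 5240 sites, and requiring a gap of over 500 bp would choose 2859. Another GR CORT peak lay within 10 kb of 47.6% of GR-only and 55.8% of shared sites, which are the stronger peaks.

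GR-only sites held fewer GREs than shared sites of like strength, and more than the DNA around them. A GRE with at most 3 mismatches lay within 100 bp of the summit at 1175 GR-only sites (30.3%, 28.9 to 31.8) and 2723 shared sites (42.3%, 41.1 to 43.5), and at 37.7% of all GR CORT peaks. Windows of the same length 1 kb to each side of the GR-only summits held one in 14.4% (13.7 to 15.2), and 51186 windows spaced evenly over the genome in 16.1%. Within bands of −log10 p the odds of a GRE were 0.658 times those of shared sites (95% interval 0.599 to 0.722, n = 10323 sites, Mantel-Haenszel test, two-sided, p = 1.1e-17 adjusted by Benjamini-Hochberg over 16 motifs).

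The lower share was seen along most of the range of strength. In the weakest band 29.3% of GR-only and 38.9% of shared sites held a GRE, and in the band from 8.66 to 9.98 the shares were 31.7% and 40.0%. The share was lower at GR-only sites in 7 of the 8 bands with at least 100 peaks, with intervals that did not overlap in 3. In the strongest band, with 13 GR-only sites, 7 held a GRE (53.8%, 29.1 to 76.8), beside 46.2% of shared sites. The difference was in the same direction and past the threshold for every alternative tried, with odds ratios from 0.624 to 0.738.

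Near-exact elements were few in both kinds of site. A GRE without a mismatch was found at 3 GR-only and 14 shared sites, and one with 1 mismatch at 50 and 121. The GRE nearest the summit was centred a median of 32 bp away at the 1175 GR-only sites that had one, and 25 bp away at the 2723 shared sites, a description with no test. GRE centres reached 2.71 per 1000 positions in the 20 bp next to the GR-only summits and 4.93 next to shared summits, from 0.722 and 0.784 at the outer end of the 500 bp examined. The single hexamer AGAACA, which is 1 arm of the GRE and is also counted within it, was present at 29.5% of GR-only and 34.5% of shared sites and at 32.5% of all GR CORT peaks (odds ratio 0.801, 0.728 to 0.880, n = 10323 sites, adjusted p = 3.5e-05). The flanks of GR-only sites held it in 15.8%, and 18.4% of the genome windows did.

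**Figure D2:**
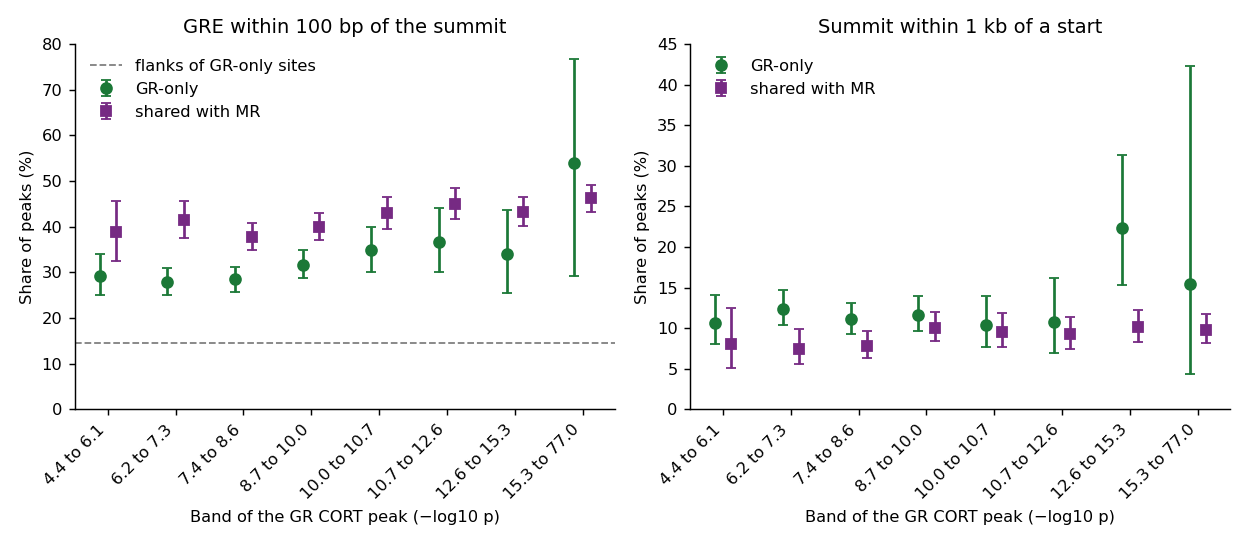
Percentage of sites with a GRE within 100 bp of the summit (left) and with a summit within 1 kb of the start of a protein-coding gene (right), for GR-only (circles) and shared (squares) sites in 8 bands of −log10 p, with 95% Wilson intervals. The dashed line is the GRE share of the flanks of GR-only sites, 14.4%. GREs are less frequent at GR-only sites in 7 bands, and starts are more frequent in each band shown.

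**Figure D3:**
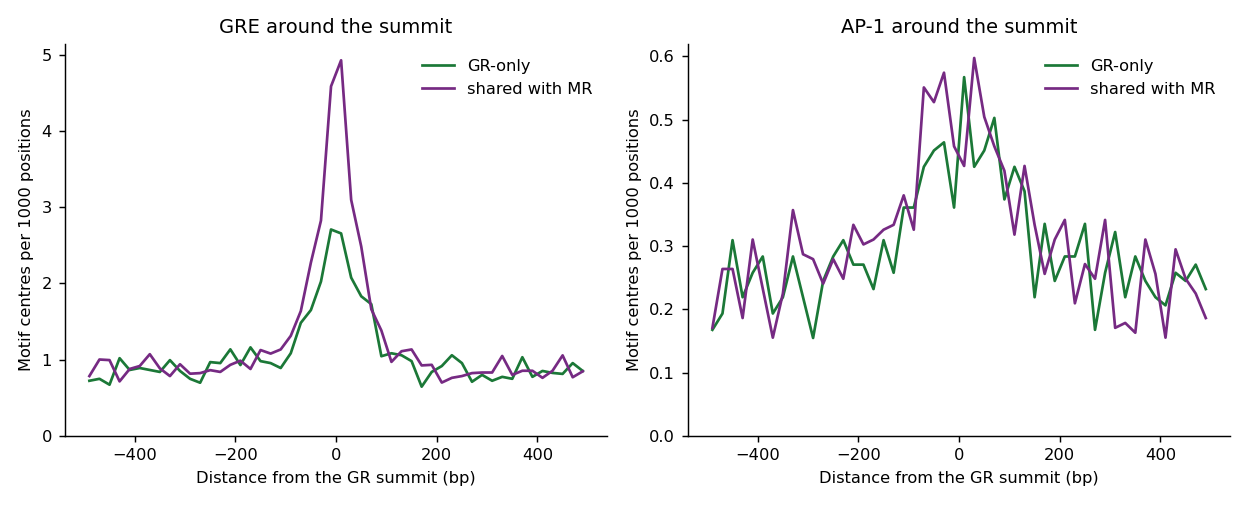
GRE centres (left) and AP-1 centres (right) per 1000 positions against the distance from the GR summit in bp, in bins of 20 bp, for GR-only and shared sites. The GRE curve reaches 2.71 at GR-only summits and 4.93 at shared summits, and the AP-1 curves of both kinds of site lie close together.

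No difference was detected for AP-1 motifs. TGACTCA or its reverse complement TGAGTCA lay within 100 bp of the summit at 316 GR-only sites (8.15%, 7.33 to 9.05) and at 9.08% of shared sites, beside 8.73% of all GR CORT peaks. The odds ratio within bands was 0.934 (0.797 to 1.10, n = 10323 sites, adjusted p = 0.59), so a difference of that size was not distinguishable, and the interval does not show that the shares are equal. The flanks of GR-only sites held AP-1 in 4.12% (3.70 to 4.59) and the genome windows in 3.26%. AP-1 was found at 7.40% of GR-only sites with a GRE and 8.47% of those without one, and these intervals overlapped. At 1935 GR-only sites (49.9%, 48.3 to 51.5) there was no GRE, no AGAACA hexamer and no AP-1 match, compared with 39.0% (37.8 to 40.2) of shared sites, with no matching for strength.

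Motifs of the neuroblast factors were less frequent at GR-only sites. The Phox2 motif, TAAT and ATTA separated by 3 bases with at most 1 mismatch, is bound by homeodomain factors of sympathetic neurons, and was present at 6.03% of GR-only, 7.71% of shared and 7.16% of all GR CORT peaks (odds ratio 0.721, 0.605 to 0.860, n = 10323 sites, adjusted p = 0.0016). The flanks of GR-only sites held it in 8.80% and the genome windows in 13.7%. The GATA motif AGATAA was present at 10.3% of GR-only, 12.1% of shared and 11.5% of all GR CORT peaks (odds ratio 0.829, 0.721 to 0.953, n = 10323 sites, adjusted p = 0.032). Its share at GR-only sites was that of their flanks, 10.3%, below the 13.5% of genome windows. The GATA difference was not past the threshold in 6 of 11 alternatives and the Phox2 difference in 2 of 11. Both odds ratios stayed below 1 in each alternative. The GC content of the windows, given below, moves with both, and with GC content added to the bands the Mantel-Haenszel chi-square test gave odds ratios of 0.756 for Phox2 (adjusted p = 0.013) and 0.855 for GATA (adjusted p = 0.12).

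The other 12 motifs, AP-1 included, had odds ratios from 0.809 to 1.82 and adjusted p-values from 0.067 to 0.76. The GC box GGGCGG, bound by Sp1 family factors, was at 7.27% of GR-only and 6.52% of shared sites (odds ratio 1.23, n = 10323 sites, adjusted p = 0.067), and the NF-1 motif, TTGGC and GCCAA separated by 5 bases with at most 2 mismatches, at 9.72% and 8.99% (odds ratio 1.16, adjusted p = 0.14). The rest were CRE (TGACGTCA), ETS (CCGGAAGT), NR4A (AAAGGTCA), CTCF, NF-kappaB (GGG and TTTCC separated by 2 bases), NF-Y (CCAAT), the E-boxes CAGATG and CAGCTG, and the heat shock element (TTC, GAA and TTC, each separated by 2 bases, at most 1 mismatch). All motifs were searched on both strands. A match is a run of letters and does not show that a factor was bound.

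**Figure D4:**
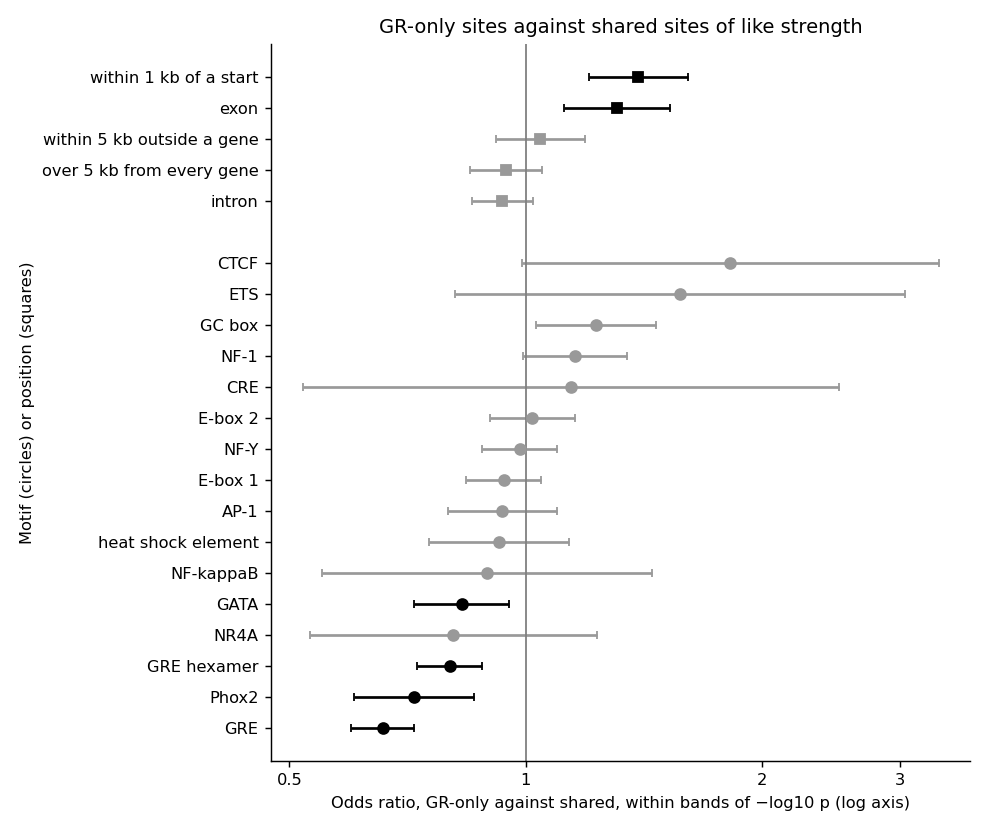
Odds ratio of GR-only against shared sites within bands of −log10 p for 16 motifs (circles) and 5 positions (squares), on a log axis with 95% intervals. Black marks an adjusted p under 0.05. E-box 1 is CAGATG and E-box 2 is CAGCTG. GRE, Phox2, the GRE hexamer and GATA lie below 1, and summits near a start (1.39) and in exons (1.31) above it.

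GR-only sites were more often at gene starts. A summit within 1 kb of the start of a protein-coding gene was found at 452 GR-only sites (11.7%, 10.7 to 12.7) and 595 shared sites (9.23%, 8.55 to 9.96), and at 10.2% of all GR CORT peaks. The odds ratio within bands was 1.39 (1.204 to 1.61, n = 10323 sites, Mantel-Haenszel test, p = 3.8e-05 adjusted over 5 positions). It was 1.55 when GR-only sites with an MR peak within 500 bp were left out. Summits in exons were found at 9.98% of GR-only, 8.38% of shared and 9.14% of all GR CORT peaks (odds ratio 1.31, 1.12 to 1.53, n = 10323 sites, adjusted p = 0.0019). This difference was not past the threshold among peaks with a −log10 q of at least 5 (odds ratio 1.22, 0.923 to 1.60, Mantel-Haenszel chi-square test, adjusted p = 0.41). Introns held 55.5% of GR-only sites, the 5 kb beside genes 13.1% and regions farther from genes 21.5%, with adjusted p-values of 0.23, 0.51 and 0.36 against shared sites.

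The GR-only sites at starts were richer in GC and poorer in GREs than the other GR-only sites. Of the 452, 220 were upstream and 232 downstream of the start, and 144 lay within 200 bp of it. Their 201 bp windows had a mean GC content of 56.8% and 8.85 CpG dinucleotides, beside 50.6% and 3.10 at the 3427 GR-only sites elsewhere. A GC box was present at 20.8% of them (17.3 to 24.8) and at 5.49% (4.77 to 6.30) elsewhere. Shared sites showed much the same contrast, with a GC content of 56.0% at starts and 50.7% elsewhere, 7.90 and 3.20 CpG dinucleotides, and a GC box at 20.5% and 5.09%. A GRE was present at 23.7% of GR-only sites at starts (20.0 to 27.8) and at 31.2% (29.6 to 32.7) elsewhere. Shared sites at starts held a GRE in 35.6% and those elsewhere in 42.9%. With peaks near starts left out, the odds ratio of a GRE was 0.663, and with all GRE peaks left out that of a start was 1.35 (Mantel-Haenszel chi-square test, adjusted p = 0.0034). Over all positions, the windows of GR-only sites had a GC content of 51.3% ± 6.28 and those of shared sites 51.2% ± 6.05 (SD over sites). Within bands GR-only sites were 0.661 percentage points higher (0.394 to 0.928, n = 10323 sites, p = 1.2e-06), and 41.8% of bases in the genome windows were G or C.

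The strongest GR-only sites near starts included several without a recognisable GRE. The following windows of 101 bp around the summit show 1 site with a GRE and a CCAAT box and 2 in which none of the letters of GRE, AP-1, GC box, CRE, ETS or NF-Y were found (capitals mark matches, forward strand of GRCm38, outside exons).
Kmt2b, chr7:30589022-30589122: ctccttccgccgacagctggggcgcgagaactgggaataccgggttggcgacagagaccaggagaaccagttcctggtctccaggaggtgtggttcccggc
Dus1l, chr11:120796493-120796593: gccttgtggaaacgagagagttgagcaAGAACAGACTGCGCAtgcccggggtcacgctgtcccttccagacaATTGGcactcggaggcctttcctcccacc
Tcp11l2, chr10:84577419-84577519: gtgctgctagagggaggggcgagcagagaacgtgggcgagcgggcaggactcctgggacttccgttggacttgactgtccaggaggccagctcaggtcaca

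The Kmt2b site, 346 bp upstream of the start of a histone H3 lysine methyltransferase gene, had a −log10 p of 15.7 and its closest GRE match had 4 mismatches. The Dus1l site, 140 bp upstream of a tRNA dihydrouridine synthase gene, had a −log10 p of 15.5 and a GRE with 3 mismatches centred 16 bp from the summit. The Tcp11l2 site was 843 bp downstream of the start with a −log10 p of 14.2. These 3 sites lay 36047, 33910 and 41591 bp from the nearest MR peak. The other 7 of the 10 strongest sites near starts were those of Zcchc17 (14.2), Mxra8 (14.2), Srpk2, an SR protein kinase (14.2), Pik3r1, the regulatory subunit of phosphoinositide 3-kinase (14.2), Fam118a (13.7), A130010J15Rik (13.7) and Disc1 (13.2). A GRE by the rule used was held by 2 of the 10, Dus1l and Zcchc17. This is near the 23.7% of all GR-only sites at starts.

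The strongest GR-only site was in a coding exon of Nr3c1, the gene of GR itself. It lay at chr18:39414406-39414611, reached a −log10 p of 18.9, held no motif of those searched and contained a border pair of the input as well as one of MR CORT. The cells carried a GR expression vector, and reads from the vector and from the gene cannot be told apart in these lists. The only GR-only site that overlapped a GR vehicle peak was at chr9:3004798-3004878, overlapping a coding exon of the gene model Gm11168, at a −log10 p of 8.85. A border pair of MR CORT lay in it too.

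The next strongest site lay at chr11:98763446-98763554, in Thra, the thyroid hormone receptor alpha gene, and within 5 kb of the clock repressor gene Nr1d1. Its summit was in an intron, and the peak overlapped a coding exon of Thra. It had a −log10 p of 17.2, and an MR peak lay 56 bp away. Sites of the same −log10 p were in introns of Zbtb20, a zinc finger repressor gene (chr16:43591237-43591369, 9006 bp from an MR peak), and Vav2, a guanine nucleotide exchange factor gene (chr2:27418084-27418212, 3166 bp from one). A second Vav2 site, chr2:27390566-27390685, had a −log10 p of 15.6 and lay 5 bp from an MR peak. The site beside Tsnax, chr8:125034460-125034651, had a −log10 p of 16.8 and held an AP-1 motif and no GRE. Sites of Bcas3 (chr11:85733674-85733794), Plekho1 (chr3:95985947-95986057) and Pik3c2a (chr7:116442369-116442492) each had a −log10 p of 15.7 and a GRE with 3 mismatches, and the GREs of Bcas3 and Plekho1 were centred 1 and 8 bp from the summit.

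GR-only sites lay in or within 5 kb of 2116 of 21728 protein-coding genes, which is 9.74%. Of these genes, 1568 had 1 GR-only site, 548 had at least 2 and 47 at least 5. Most of the genes were not free of MR: 1401 of the 2116 also had an MR peak of some treatment in the same span, and 715 (33.8%) had none. Genes with a GR-only site had a median length of 48.2 kb, those with no MR peak 22.4 kb and all protein-coding genes 17.4 kb. A longer gene has more room for a site, and the part of length in the counts below was not tested.

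The genes with the most GR-only sites were long or on distal chromosome 8. The gene model Gm20388, which spans 4435 kb across many other genes at chr8:119910841-124345722, held 84 GR-only and 172 shared sites. Inside it, Gse1, a gene of 353 kb that encodes a coiled-coil protein, had 24 GR-only and 54 shared sites, and Zfpm1, the gene of a GATA cofactor, had 9 and 8 in 55.1 kb. Klhl29, Myo16, Slit3 and Fgfr2 had 9 GR-only sites each, and Macrod1, Ttc28 and Frmd4a 8 each. The Fgfr2 annotation used spans 2961 kb (chr7:130162451-133123350), and its 0.303 GR-only sites per 100 kb were the fewest among these genes. Each of these 10 genes also had MR peaks, from 21 at Zfpm1 to 418 in Gm20388. Chromosome 8 as a whole had 418 GR-only sites, or 3.23 per Mb, beside 0.140 per Mb on X, and GR-only sites were 34.0% of its GR CORT peaks. That share ran from 33.7% on chromosome 10 to 43.3% on chromosome 18.

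Genes of the AP-1 list had GR-only sites in 7 of 15 cases (46.7%, beside 9.74% of all protein-coding genes), with a median gene length of 11.1 kb. The list is wider than the Fos and Jun genes and includes Atf3, Maff and Mafk. The sites near Fos (−log10 p 6.15), Junb (11.4) and Atf3 (8.93) were 1 each, Jund and Fosl2 had 2 each, Maff had 1 and Mafk had 3. The Junb site, at chr8:84976645-84976845, was 2018 bp from the start and 5159 bp from an MR peak. Fos, the immediate early gene, was the only one of the 7 with no MR peak in the gene or within 5 kb. All of the 7 except Fos also had a shared site there. Of the 15 genes, 9 had a GR CORT peak of any kind, and the same share over all protein-coding genes was not computed.

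Of 30 genes listed as glucocorticoid-induced regulators, 7 had a GR-only site (23.3%, beside 9.74% of all protein-coding genes). In this list 17 genes had a GR CORT peak and 18 an MR peak. The same 2 shares over all protein-coding genes were not computed. All 7 genes with a GR-only site also had an MR peak. Fkbp5, a co-chaperone of the receptors, had 2 GR-only sites beside 10 shared ones, and 1 of the 2 lay 37 bp from a start (chr17:28511271-28511351, −log10 p 7.38). Dusp1, a phosphatase of MAP kinases, had a GR-only site 959 bp from a start, with a −log10 p of 7.38. Mt2, a metallothionein gene, had a site that touched an MR peak. Ddit4, Sesn1, Dusp4 and Tns1 had 1 each, with −log10 p from 4.49 at Dusp4 to 11.5 at Tns1. Dusp4 was in the list although the paper reports lower Dusp4 mRNA in N2A cells with transfected receptors under CORT.

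Clock genes had GR-only sites in 3 of 19 cases (15.8%, beside 9.74% of all protein-coding genes). Arntl, the BMAL1 gene, had 2 intronic sites (−log10 p 11.4 and 8.66) that were 24086 and 62055 bp from the nearest MR peak, with no shared site. Tef, a PAR bZIP factor gene, had 1 site and no MR peak in the gene or within 5 kb. The nearest MR peak lay 2794 bp from that site. Nr1d1 had 2 sites with summits in introns, among them the Thra site described above. Receptor coregulators had GR-only sites in 4 of 17 cases (23.5%), and Ncoa1, Ncoa2 and Nrip1 had 1 each and no shared site. Receptor chaperones had 2 of 18 (11.1%), Fkbp5 and Cdc37, which recruits kinases to HSP90 and had no MR peak in the gene or within 5 kb.

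Neuronal lists varied. Axon guidance genes had GR-only sites in 13 of 36 cases (36.1%, beside 9.74% of all protein-coding genes). Their median length was 190 kb, and Slit3 had 9 sites, Plxna4 6 and Ntn1 3. A Ntn1 site at chr11:68379664-68379755 held a GRE with 1 mismatch and lay 156818 bp from the nearest MR peak. Efnb2, an ephrin gene, was the only one of the 13 with no MR peak in the gene or within 5 kb. Potassium channel genes had 6 of 27 (22.2%) and synaptotagmins 3 of 16 (18.75%). Glutamate and GABA receptor genes had 1 of 28 (3.57%), with a median length of 386 kb. The sympathetic factor genes Tbx2 and Mycn had 1 site each, with no MR peak in the gene or within 5 kb, and made 2 of 18 (11.1%). Of the catecholamine genes 2 of 15 had a site (13.3%). Slc18a2, the vesicular monoamine transporter gene, had 5 GR-only sites, and the strongest (chr19:59261303-59261544, −log10 p 12.6) lay 20 bp from an MR peak. Ddc, the dopa decarboxylase gene, had 1 GR-only site beside 4 shared sites and 12 MR peaks. That site had a −log10 p of 6.15 and lay 86 bp from an MR peak.

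NF-1 and GATA factor genes had GR-only sites at Nfib, Nfic and Nfix (3 of 10, 30%), and heat shock genes at Hsf1 and Hspb1 (2 of 12, 16.7%). Ribosomal protein genes had 8 of 80, with a median length of 3.33 kb. Of the 14 lists, 13 lay above the 9.74% of all protein-coding genes. The ribosomal protein, receptor chaperone and sympathetic factor lists among them were near it, at 10%, 11.1% and 11.1%. The lists were chosen with earlier results known and were not matched for gene length, and no test was run on them.

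**Figure D5:**
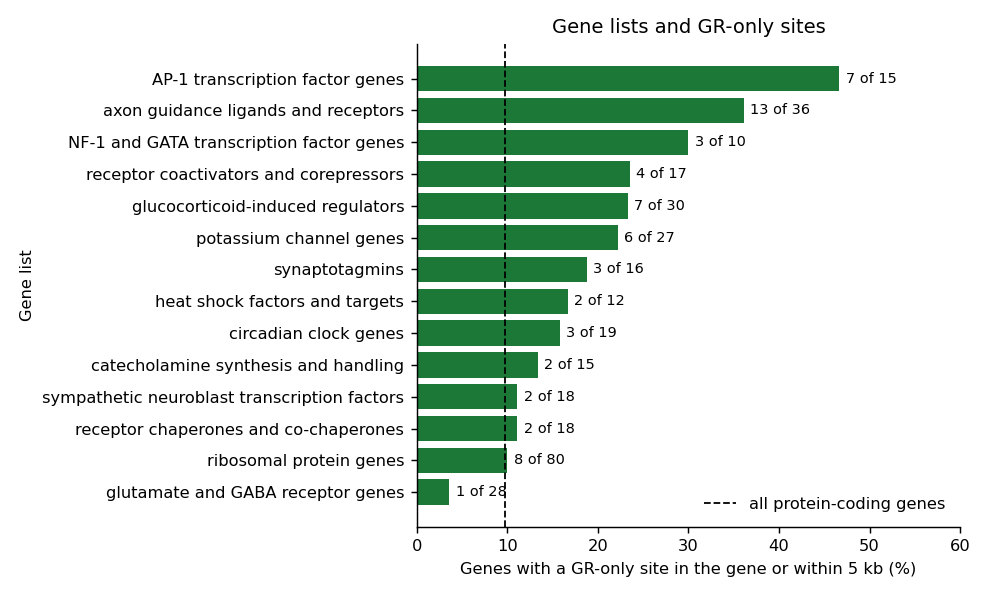
Percentage of the genes of each list with a GR-only site in the gene or within 5 kb, with the counts beside the bars. The dashed line is the share of all protein-coding genes, 9.74%. AP-1 transcription factor genes have the highest share, 7 of 15, and glutamate and GABA receptor genes the lowest, 1 of 28.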

How the data were processed

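The authors trimmed the reads, aligned them to GRCm38 (mm10) with Bowtie2, removed copies with the same barcode, filtered on mapping quality and, after combining replicates, ran MACS2 2.1.1.20160309 against input at a false discovery rate of 0.05. Each deposited peak has a −log10 p and, in the column headed as fold enrichment, a −log10 q. The deposited score is the −log10 q times 10, cut to a whole number. Border pairs were called by the authors with MACE, and their deposited p-values were not used. The files analysed hold no read counts, so no depth was computed from them, and depth affects which weak peaks are listed. −log10 p served to rank and match peaks within the GR CORT list and not as an amount of binding.

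A total of 9 samples gave 6 peak lists and 9 lists of border pairs. Members, gene lists, motifs and alternatives were chosen with earlier results of these data known. Overlap meant 1 bp or more. Motifs were counted in RefSeq GRCm38.p6 within 100 bp of each summit, and positions were taken from GENCODE M21. Shares were compared by Mantel-Haenszel tests and GC content by a weighted difference of means over 10 bands, two-sided, with Benjamini-Hochberg adjustment, after tests on simulated data. Genes named are those at the 12 strongest sites, the 12 closest GREs, the 10 genes with most sites, the 10 strongest sites near starts, listed genes with a site, the 5 sites on each side of the overlap threshold, and sites at GR vehicle peaks or Nr3c1 and Nr3c2 coding exons. Some items that this rule names are not reported here. Python 3.11.15, numpy 2.4.6, pandas 2.3.3, scipy 1.17.1, pysam 0.24.0 and matplotlib 3.10.9 were used.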

Additional observations from a re-analysis of the deposited data

Results flagged for a closer look

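Border pairs of MR after CORT lay inside 44 of the 3879 GR-only sites (1.13%, 95% Wilson interval 0.846 to 1.52), although no MR peak was listed there. It was noticed because the border pairs of the input after CORT lay in 5 of the same sites (0.129%, 0.0551 to 0.301), and 4 of these 5 were among the 44. MR vehicle border pairs lay in 4 and MR washout border pairs in 9 GR-only sites, and 1157 of the 6444 shared sites (18.0%) held one of MR CORT. The GR CORT border pairs lay in 1 GR-only site and 25 shared sites (0.388%), fewer than the 5 and 41 sites with an input CORT border pair, so the GR list of border pairs marks few of the GR peaks. The 44 sites had a median −log10 p of 8.66, 7 lay within 100 bp of an MR CORT peak and 11 (25.0%, 14.6 to 39.4) held a GRE. The strongest were at Nr3c1, Bcas3, Gse1, Mgat5b and Hbs1l. MR border pairs and MR peaks come from the same reads, which the choice of sites used, so no test was made.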

How the results depend on the processing

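The number of GR-only sites followed the rule: 3392 with a gap of over 100 bp to every MR or GR washout peak, 2859 with over 500 bp, 5240 with summits over 50 bp apart and 827 of the peaks with a −log10 q of at least 5. Genes with a site numbered 3252 within 20 kb and 586 for sites above that −log10 q. The GATA odds ratio lost significance with width added to the bands (0.845), with GC content added (0.855), at a −log10 q of at least 5 (0.758), without chromosome 8 (0.839), in windows of 50 bp (0.859) and without repeats (0.782). The AP-1 odds ratio, not past the threshold in any setting, was 1.01 in windows of 50 bp. Of the 13 motifs besides GRE, AP-1 and GATA, 2 passed the threshold, and 1 did in windows of 50 bp and without repeats. Phox2 did not pass in these 2 settings (odds ratios 0.733 and 0.810). The GC box passed in windows of 200 bp (1.18). Of the 5 positions, 1 passed at a −log10 q of at least 5. The GRE, start and GC content differences kept their direction and side of the threshold in every alternative. Bands with GC content, peaks over 1 kb from a start and peaks without a GRE were chosen after seeing the data. The causes of these changes were not tested. No paired analysis was possible because the replicates are combined in 1 list per condition, and for the same reason no replicate could be left out.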
